A study of Mus musculus with 6 samples.

Results

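The mitochondrial carriers of the Slc25 family were taken as the rows of the deposited table whose gene symbol is Slc25a followed by a number. There were 36 such rows among 13254 genes. GENCODE M21, a mouse gene annotation, lists 47 such symbols, and the other 11 were not analysed here. RNA sequencing had been done on bone marrow derived macrophages (BMDMs), which are grown in culture from marrow precursors. Of the 6 samples, 3 came from miR-130b/301b knockout mice (KO), in which this cluster of microRNA genes is deleted, and 3 from wild-type mice (WT). Total RNA was sequenced from both ends. The labels give no strain, age, sex, cell or promoter restriction of the deletion, or stimulus, and they word the growth protocol alike for both groups. Whether each sample is a separate animal is not stated, and the p-values below cover only the spread between samples, which may be technical.

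Slc25 proteins sit in the inner membrane of mitochondria, with a few members in the outer membrane or in peroxisomes. Most move small molecules across the membrane: nucleotides, phosphate, organic acids, amino acids, acylcarnitines, cofactors or iron. They supply ATP synthesis with ADP and phosphate, carry reducing equivalents through the malate-aspartate shuttle and export citrate for lipid synthesis. In macrophages the last of these is known for its link to inflammatory activation.

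Values are CPM, read counts scaled to library size by the authors. The columns summed to between 989223 and 1018258. Read depth is unknown, and no counting interval can be given. The 7 macrophage markers summed to between 19178 and 19862 CPM in KO and between 17525 and 18103 CPM in WT, and none of them passed the test. Lyz2, lysozyme, carried that gap: without it the other 6 summed to between 7257 and 7541 CPM in KO and between 6995 and 7419 CPM in WT, which overlap. The stromal markers summed to between 4.84 and 32.6 CPM in KO and between 46.5 and 52.4 CPM in WT. Of the 7 stromal genes listed, 6 were in the table, none of them at 0 in all samples, and Col3a1 and Postn passed the test in the lower direction. Neutrophil and early myeloid markers summed to between 86.6 and 114 CPM in KO and between 101 and 114 CPM in WT. Of them, Mpo passed the test in the lower direction. Elane, which did not pass, and Prtn3, which was too low to be tested, also lay lower in every KO sample. S100a8, S100a9 and Ctsg overlapped between the groups. The 2 listed dendritic markers in the table summed to between 0.515 and 0.736 CPM in KO and between 0.840 and 1.32 CPM in WT. The 2 lymphoid markers summed to between 0.799 and 1.19 CPM in KO and between 1.42 and 1.81 CPM in WT. Both sums were lower in every KO sample, and these genes were too low to be tested. The part of these cells in the values below was not tested.

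The deleted microRNA and the sites that match its seed in carrier transcripts are shown because a target of miR-130b would be sought among them. The seed, bases 2 to 8 of the microRNA, is in capitals. The mature sequence is from RefSeq on GRCm38.p6 at chr16:17124071-17124092 on the minus strand, inside the host gene 2610318N02Rik. The other microRNA of the cluster is miR-301b-3p. Among the microRNAs that carry the same seed are miR-130a-3p and miR-301a-3p, whose own genes lie on other chromosomes.
miR-130b-3p: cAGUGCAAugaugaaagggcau
miR-130a-3p: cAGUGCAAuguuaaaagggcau
miR-301a-3p: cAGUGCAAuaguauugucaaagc

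The complement of this seed, TTGCACT, was searched on the transcript strand of every gene's longest 3′ UTR in GENCODE M21. It was found in 6 of the 35 carriers with such a UTR (17.1%) and in 12% of 10691 tested genes with one. The longest 3′ UTR of a carrier had a median of 1361 bases, against 1206 bases over the tested genes. Each matching carrier held a single site, and 5 of the sites are printed 5′ to 3′ with the match in capitals and its GRCm38 position. They lie on the minus strand in the 3′ UTR.
Slc25a32, chr15:39094912-39094940: tgtcagtactgTTGCACTagcctctattt
Slc25a42, chr8:70186205-70186233: taatgggtcaaTTGCACTtcctggccctg
Slc25a44, chr3:88410532-88410560: aatattcactgTTGCACTgtatgagatct
Slc25a51, chr4:45397672-45397700: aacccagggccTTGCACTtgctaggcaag
Slc25a53, chrX:136981605-136981633: gttttttccacTTGCACTgccctccccca

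Of these sites, that of Slc25a32 is followed by the A that extends a seed match. In KO, 3 of the 6 matching carriers had a positive log2 fold change and 3 a negative value, with a median of -0.019. The 29 carriers without the match had a median of -0.0096. Over all tested genes the medians were -0.012 with the match and 0.0024 without it. A match is a description of these letters and does not show a site in use.

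No carrier transcript was shown to differ between KO and WT macrophages with 3 samples against 3. All 36 carriers passed the filter of at least 1 CPM in at least 3 samples. In the limma fit on log2(CPM + 1), with p adjusted by Benjamini and Hochberg (BH) across 11556 genes, 0 of 36 rose and 0 fell at an adjusted p under 0.05. The background share of all tested genes past this test was 1.27%, with 0.485% higher and 0.787% lower in KO. At an unadjusted p under 0.05 there were 2 carriers, Slc25a13 and Slc25a51 (5.56%), against 12.5% of the tested genes. The log2 fold changes of the carriers lay between -0.20 (Slc25a13) and 0.22 (Slc25a38), with a median of -0.021 against -0.00035 over all tested genes. Of the carriers, 20 had a lower mean in KO and 16 a higher one, so 55.6% were lower by any amount, against 50.1% of the tested genes. In bulk samples, fewer cells of a type and less RNA per cell cannot be told apart.

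**Figure D1:**
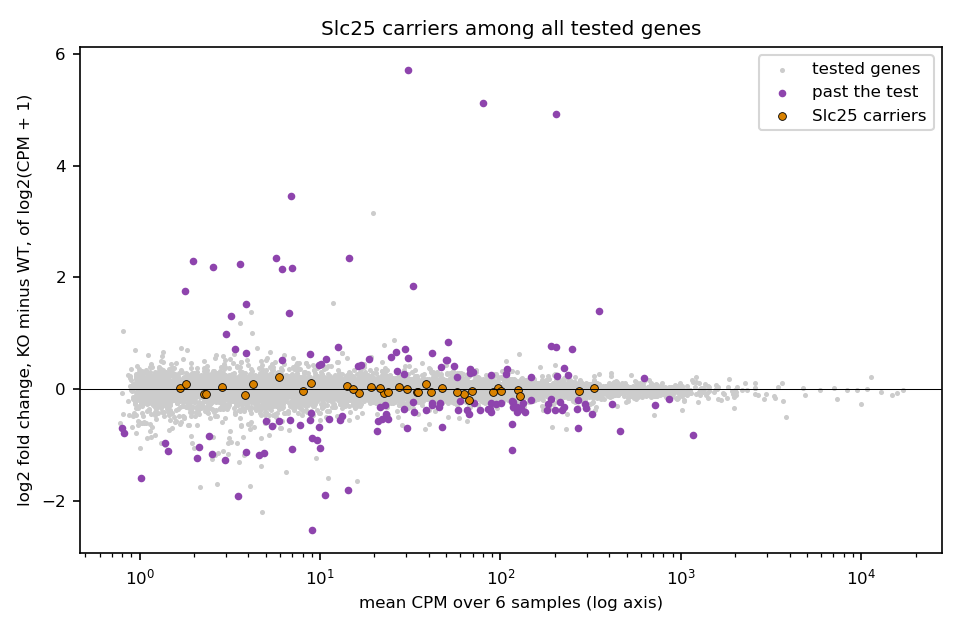
Log2 fold change of KO minus WT against mean CPM (log axis) for 11556 tested genes (grey), those past the test (purple) and 35 of the Slc25 carriers (orange). The carriers lie between -0.20 and 0.22, and none is past the test.

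The intervals of these differences give the size of change that the samples could have hidden. The 95% intervals, which are not adjusted for the number of genes, lay inside ±0.1 on the log2 scale for 1 carrier (Slc25a3), inside ±0.2 for 16, inside ±0.3 for 27 and inside ±0.5 for all 36. The bound farthest from 0 was the upper bound of Slc25a38, at 0.44. The scale adds 1 CPM and understates the change of low genes, which bears most on the 7 carriers with a mean under 5 CPM.

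**Figure D2:**
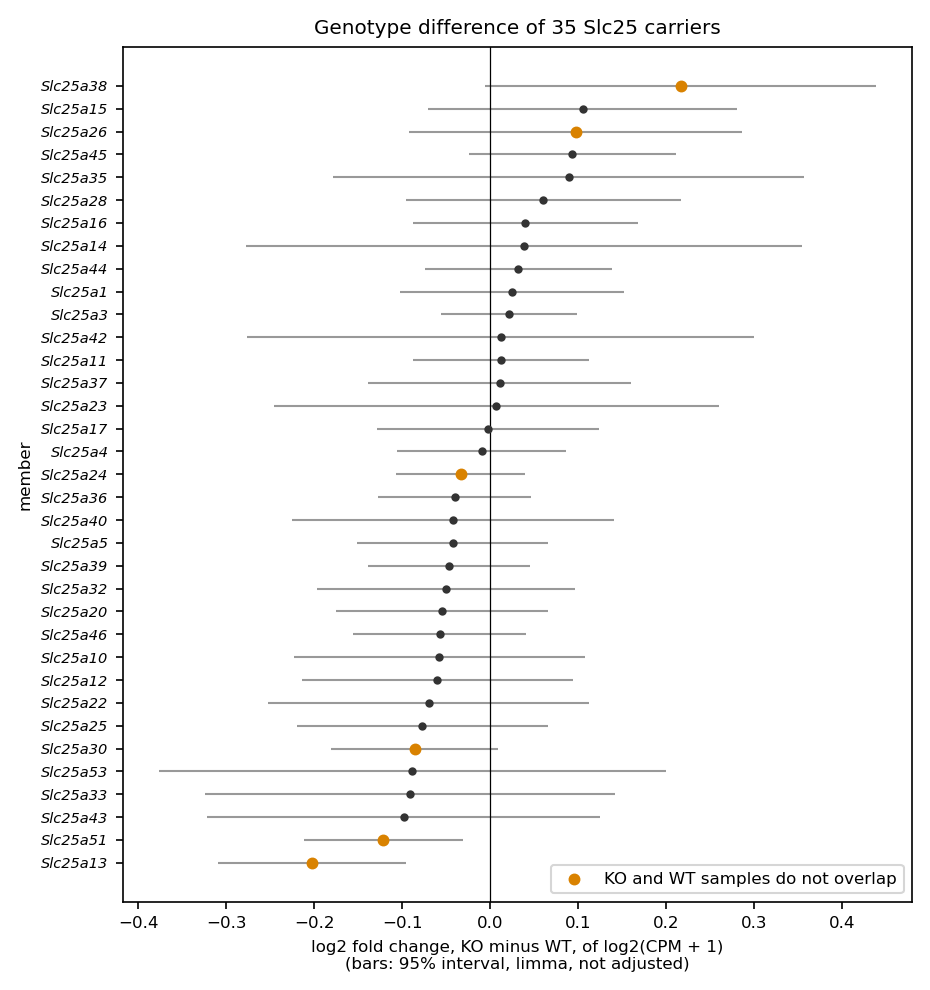
Log2 fold change of 35 carriers, KO minus WT, with its 95% limma interval, in order of size. Orange points mark the 6 carriers whose KO and WT samples do not overlap; the intervals of 2 of them, Slc25a13 and Slc25a51, lie wholly on the lower side of 0.

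Abundance was compared between carriers as CPM per kilobase of the longest protein-coding transcript in GENCODE M21, averaged over the 6 samples. Slc25a5, the ADP/ATP exchanger of proliferating and many other cells, led at 219.7 ± 10.1 CPM per kilobase (mean ± SD, n = 6). Slc25a3, the phosphate carrier, followed at 204 ± 4.67. The 6-sample ranges of these carriers overlapped, from 208 to 235 and from 196 to 209.5, so their order was not resolved. Slc25a5 has a processed pseudogene copy in GENCODE, Slc25a5-ps, and reads shared with it would make its level uncertain.

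A gap separated them from the next carriers. Slc25a4, the ADP/ATP exchanger best known from heart and muscle, stood at 65.0 ± 2.12 CPM per kilobase. Slc25a11, the oxoglutarate-malate carrier, stood at 56.6 ± 1.95 and Slc25a39, which brings glutathione into mitochondria, at 54.0 ± 1.80. The ranges of Slc25a11 and Slc25a39 overlapped. Slc25a24, a calcium-regulated ATP-magnesium/phosphate carrier, stood at 29.4 ± 0.443, Slc25a51, the NAD carrier, at 28.9 ± 1.6 and Slc25a1, the citrate carrier, at 28.3 ± 1.40, with overlapping ranges. Slc25a13, the aspartate-glutamate carrier also called citrin, stood at 21.3 ± 1.82 and Slc25a20, the carnitine-acylcarnitine carrier, at 19.3 ± 0.812.

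The lowest carriers were Slc25a53 at 0.735 ± 0.10 CPM per kilobase, the coenzyme A carrier Slc25a42 at 0.521 ± 0.0715 and Slc25a35 at 0.494 ± 0.0597. From highest to lowest the family spanned 445-fold by transcript length, from Slc25a5 to Slc25a35. By coding length it spanned 176-fold and by CPM alone 198-fold, both from Slc25a3 to Slc25a42. Slc25a5 and Slc25a3 together made up 47.1% of the summed level per kilobase, and the 10 most abundant carriers 80.7%. The median carrier stood at 7.08 CPM per kilobase, against 8.71 over the 11266 tested genes with a length, and 17 of 36 lay above that median. Of the 35 pairs of neighbours in the order, 25 had overlapping 6-sample ranges. The 10 most abundant carriers were the same in the KO mean and the WT mean. The order depends on the length used: with coding length, 8 of the 10 most abundant carriers stayed among them, as with CPM without length, and Slc25a36 and Slc25a30 took the places of Slc25a13 and Slc25a20 with coding length.

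**Figure D3:**
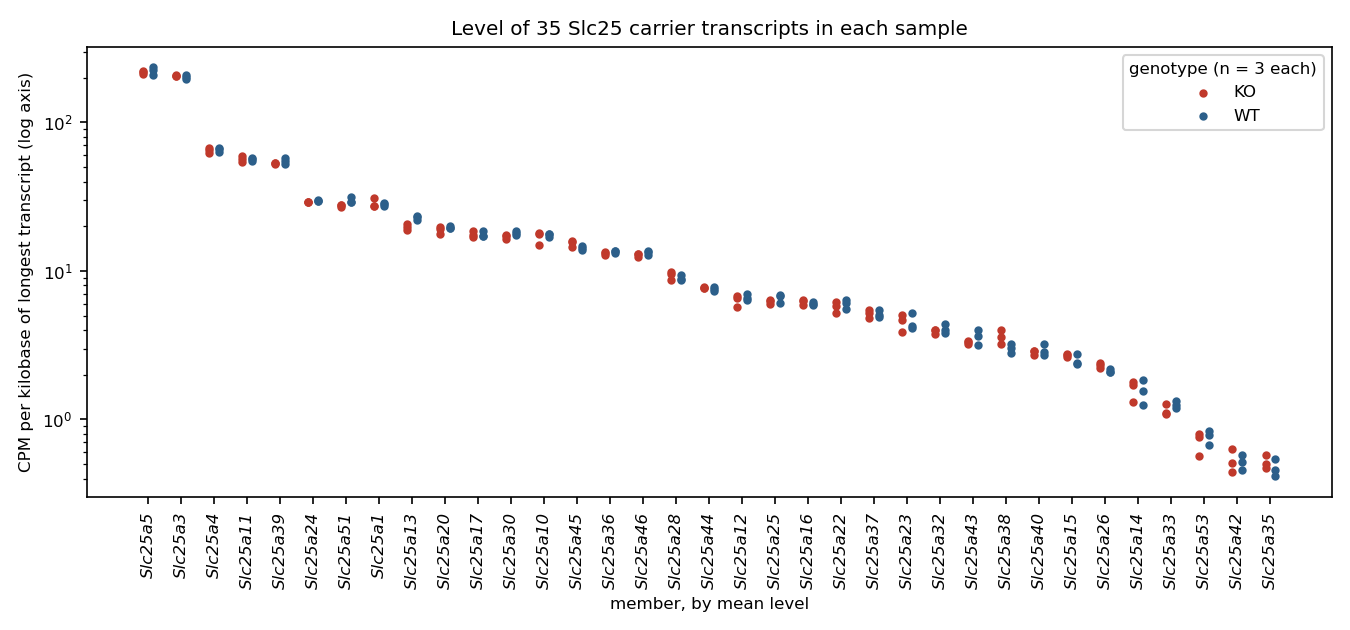
CPM per kilobase of longest transcript (log axis) in each KO and WT sample for 35 carriers, ordered by mean level. The points of the genotypes lie on each other at this scale, from 219.7 for Slc25a5 to 0.494 for Slc25a35.

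Carriers that supply ATP synthesis were the most abundant group, and none passed the test. The KO samples, given in the order of their replicate numbers here and below, held 275, 269 and 261 CPM of Slc25a5, and the WT samples 258, 291 and 281 CPM. The groups overlapped, with the WT samples holding both the lowest and the highest value (log2 fold change -0.04, SE 0.0477, limma's BH-adjusted p = 0.776). Slc25a3 stood at 334, 329.9 and 330.2 CPM in KO and at 316, 338 and 327 CPM in WT, again overlapping (0.02, SE 0.034, limma's BH-adjusted p = 0.855). Slc25a4 stood at 129.5, 125 and 119 CPM in KO and at 121, 129 and 127 CPM in WT (-0.01, adjusted p = 0.954). The ratio of Slc25a5 to Slc25a4 per kilobase lay between 3.29 and 3.51 in the 6 samples, and between 2.12 and 2.26 by coding length.

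The ATP-magnesium/phosphate carriers, which adjust the adenine nucleotide content of mitochondria, had the carrier with the narrowest range. Slc25a24 stood at 99.2, 100.3 and 99.6 CPM in KO and at 102, 103 and 101 CPM in WT. Its KO samples all lay under its WT samples, by a log2 fold change of -0.03 (SE 0.0322, limma's BH-adjusted p = 0.734), and its highest sample exceeded its lowest by a factor of 1.04, the smallest of all carriers. Its paralogs Slc25a25 (21.9 ± 0.708 CPM in KO and 23.2 ± 1.53 in WT, mean ± SD, n = 3 here and below) and Slc25a23 (15.3 ± 1.95 and 15.2 ± 1.93) overlapped between genotypes. Per kilobase, Slc25a24 exceeded Slc25a25 by between 4.37 and 4.88 times and Slc25a23 by between 5.70 and 7.42 times. Slc25a17, which serves peroxisomes with coenzyme A and related cofactors, stood at 30.4 ± 1.47 and 30.4 ± 1.27 CPM.

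Carriers of organic acids had overlapping groups. Slc25a11 stood at 102, 96.7 and 92.5 CPM in KO and at 94.5, 97.8 and 96.7 CPM in WT, with KO replicate 1 highest (log2 fold change 0.01, SE 0.0439, limma's BH-adjusted p = 0.944). Slc25a1 stood at 45.8, 51.7 and 45.5 CPM in KO and at 45.9, 46.8 and 47.5 CPM in WT. KO replicate 2 stood highest and the other KO samples lowest (0.03, SE 0.0558, limma's BH-adjusted p = 0.899). The dicarboxylate carrier Slc25a10 stood at 34.2 ± 3.47 and 35.5 ± 0.900 CPM.

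Among the amino acid carriers, Slc25a13 had the lowest unadjusted p of the family. This calcium-regulated carrier exports aspartate in exchange for glutamate as a step of the malate-aspartate shuttle. It stood at 62.0, 64.3 and 59.0 CPM in KO and at 68.2, 72.3 and 73.1 CPM in WT, so that every KO sample lay under every WT sample. The difference did not pass the test (log2 fold change -0.20, SE 0.0468, 95% interval -0.31 to -0.10, limma, unadjusted p = 0.00219, BH-adjusted p = 0.106). An exact permutation test, two-sided, returned 0.1, which is the smallest p this design can reach. Under the 18 alternative settings its log2 fold change stayed between -0.23 and -0.17, and its BH-adjusted p between 0.0555 and 0.352.

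The gene lies on chromosome 6. Its paralog Slc25a12, also called aralar, which does the same exchange, overlapped between the groups, with 40.4 ± 3.53 CPM for KO and 42.1 ± 1.81 CPM for WT (log2 fold change -0.06, limma's BH-adjusted p = 0.777). Per kilobase Slc25a13 exceeded Slc25a12 by between 2.78 and 3.59 times, and by coding length by between 1.37 and 1.77 times. The per-kilobase ratio was 3.03, 3.59 and 2.78 in KO and 3.42, 3.54 and 3.37 in WT, so it overlapped between genotypes.

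Slc25a38, which imports glycine for heme synthesis, had the largest positive difference of the family. It stood at 7.21, 5.73 and 6.44 CPM in KO and at 5.45, 5.72 and 5.05 CPM in WT. Every KO sample lay above every WT sample, though KO replicate 2 and WT replicate 2 differed by less than 0.1 CPM (log2 fold change 0.22, SE 0.0974, 95% interval -0.01 to 0.44, limma's BH-adjusted p = 0.414). The ornithine carrier Slc25a15 stood at 9.49, 9.31 and 9.08 CPM in KO and at 8.19, 9.40 and 8.16 CPM in WT, overlapping through WT replicate 2 (0.11, SE 0.0771, limma's BH-adjusted p = 0.635). The glutamate carrier Slc25a22 stood at 16.1 ± 1.40 and 16.9 ± 1.17 CPM, and Slc25a44, which carries branched-chain amino acids, at 27.7 ± 0.345 and 27.1 ± 0.651 CPM.

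Slc25a20, the carrier of the carnitine shuttle that brings fatty acids to oxidation, stood at 35.1, 34.3 and 31.6 CPM in KO and at 35.7, 34.7 and 34.5 CPM in WT. The groups overlapped, with KO replicate 3 lowest (log2 fold change -0.05, SE 0.0527, limma's BH-adjusted p = 0.733).

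In the cofactor and nucleotide carriers, Slc25a51 and Slc25a26 had groups that did not overlap, in opposite directions. Slc25a51, which brings NAD into mitochondria, stood at 124, 123.4 and 120.3 CPM in KO and at 130.2, 140.1 and 130.2 CPM in WT (log2 fold change -0.12, SE 0.0397, 95% interval -0.21 to -0.03, limma's BH-adjusted p = 0.257). The exact permutation p was 0.1, which any carrier without overlap returns, Slc25a13 included. Every KO sample of Slc25a51, a holder of a seed match shown above, lay under every WT sample, and the gene lies on chromosome 4. Slc25a26, which imports the methyl donor S-adenosylmethionine, stood at 4.44, 4.58 and 4.25 CPM in KO and at 4.18, 4.04 and 3.99 CPM in WT (0.10, SE 0.0828, limma's BH-adjusted p = 0.688).

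Slc25a33, a pyrimidine nucleotide carrier, stood at 2.40, 2.09 and 2.04 CPM in KO and at 2.37, 2.27 and 2.50 CPM in WT (log2 fold change -0.09, SE 0.102, limma's BH-adjusted p = 0.777). Its paralog Slc25a36 was the more abundant, at 68.5 ± 1.66 and 70.4 ± 1.34 CPM, and exceeded it per kilobase by between 10.02 and 12.2 times, and by coding length by between 28.6 and 34.9 times. Also in this group were Slc25a16 (19.5 ± 0.840 and 18.9 ± 0.357 CPM), the folate carrier Slc25a32 (23.2 ± 0.899 and 24.1 ± 1.73 CPM) and Slc25a42 (1.68 ± 0.309 and 1.65 ± 0.185 CPM).

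Carriers of iron and glutathione had overlapping groups. Slc25a39 stood at 89.3, 88.5 and 90.4 CPM in KO and at 88.6, 92.4 and 96.3 CPM in WT (log2 fold change -0.05, SE 0.0404, limma's BH-adjusted p = 0.693). Its paralog Slc25a40 stood at 7.88 ± 0.230 and 8.16 ± 0.686 CPM, and Slc25a39 exceeded it per kilobase by between 17.1 and 19.97 times, and by coding length by between 9.72 and 11.3 times. Slc25a37 and Slc25a28, the mitoferrins that bring iron to heme and iron-sulfur cluster synthesis, stood at 21.6 ± 1.32 and 21.4 ± 1.17 CPM and at 14.4 ± 0.921 and 13.7 ± 0.546 CPM. The order of the mitoferrins depends on the length: Slc25a37 was at between 0.489 and 0.628 of Slc25a28 by transcript length and at between 1.43 and 1.84 times its level by coding length. Slc25a37 is known for its high expression in red cell precursors, and the 7 erythroid markers listed were not analysed here.

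The remaining carriers include relatives of the uncoupling proteins and members whose substrate is not settled. Slc25a30 stood at 61.4, 62.4 and 58.8 CPM in KO and at 62.8, 64.8 and 66.3 CPM in WT. Its KO samples all lay under its WT samples, by less than 0.5 CPM between the nearest (log2 fold change -0.09, SE 0.0416, limma's BH-adjusted p = 0.452). Its relative Slc25a14 stood at 2.89 ± 0.448 and 2.8 ± 0.536 CPM. Slc25a45 stood at 41.4, 40.6 and 37.6 CPM in KO and at 36.2, 37.2 and 38.5 CPM in WT, overlapping through KO replicate 3 (0.09, SE 0.0516, limma's BH-adjusted p = 0.504).

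Slc25a43 stood at 3.68, 3.59 and 3.76 CPM in KO and at 4.06, 3.54 and 4.45 CPM in WT, with WT replicate 2 lowest. Slc25a53 stood at 2.53, 1.80 and 2.42 CPM in KO and at 2.50, 2.15 and 2.68 CPM in WT, and its highest sample exceeded its lowest by a factor of 1.49, the largest of the family. Slc25a35 stood at 1.84, 2.12 and 1.71 CPM in KO and at 1.68, 1.51 and 1.96 CPM in WT. These low carriers overlapped between genotypes, with limma's BH-adjusted p of 0.744, 0.83 and 0.813. Slc25a46, an outer membrane member that takes part in mitochondrial shape, stood at 56.0 ± 1.69 and 58.3 ± 1.83 CPM.

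The carriers whose samples did not overlap numbered 6 of 36 (16.7%), against 17.7% of all tested genes. Those lower in every KO sample were Slc25a13, Slc25a51, Slc25a30 and Slc25a24, 4 of 36 against 9.1% of the tested genes, and those higher were Slc25a38 and Slc25a26, 2 of 36 against 8.55%. The share of the carriers is near that of the background.

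**Figure D4:**
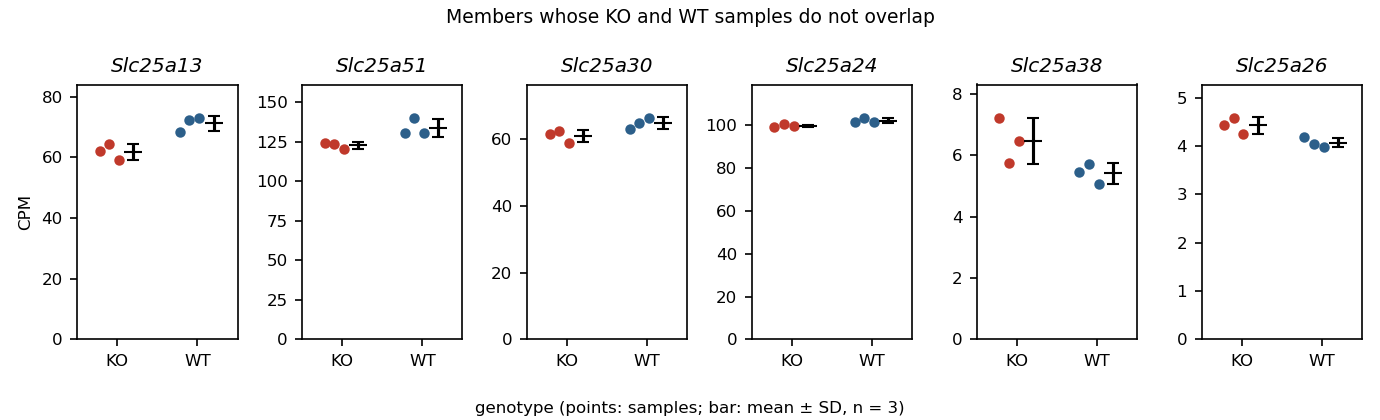
CPM in each sample (points) with mean ± SD (bars, n = 3) for the 6 carriers whose KO and WT samples do not overlap. The axes start at 0; Slc25a13 runs from 59.0 to 64.3 CPM in KO and from 68.2 to 73.1 CPM in WT.

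Summed over the family, the carriers gave 1850, 1830 and 1795 CPM in KO and 1809, 1894 and 1880 CPM in WT, so that the sums overlapped. Of the 9 role groups, 3 had sums that did not overlap. Among single tested genes 17.7% did not overlap, and no such share was computed for sums of genes. The sums of the 6 amino acid carriers stood at 162, 160 and 163 CPM in KO and 168, 171 and 175 CPM in WT. Those of the 8 cofactor and nucleotide carriers stood at 259, 261 and 254 CPM in KO and 265, 273 and 270.1 CPM in WT. Those of the uncoupling protein relatives Slc25a30 and Slc25a14 stood at 64.6, 64.8 and 61.9 CPM in KO and 66.1, 67.6 and 68.6 CPM in WT. Each gap rested on 1 carrier. Without Slc25a13 the amino acid sums overlapped, at 95.8 to 103.7 CPM in KO and 98.7 to 101.5 CPM in WT. Without Slc25a51 the cofactor sums overlapped, at 134 to 138 CPM in KO and 133 to 139.9 CPM in WT, and Slc25a14 without Slc25a30 overlapped as well. WT replicates 2 and 3 also had the highest column sums of the table. The columns were also rescaled to a common total, a setting added after the data were seen. With this, 18 carriers lay lower and 18 higher in KO, against 20 and 16 as deposited. Of all tested genes, 40.2% lay lower in KO after rescaling, against 50.1% as deposited. The median of the carriers then became 0.0015 and that of all tested genes 0.022.

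The carriers varied about as much between samples as other genes did. The coefficient of variation over the 6 samples had a median of 5.48% for the carriers and 6.32% for all tested genes. The within-genotype SD of log2(CPM + 1) had a median of 0.0721 for the carriers and 0.0787 for all tested genes.

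Genes that work with the carriers were grouped in 7 lists, and none of their 69 tested genes, which fill 70 rows, passed the test. By limma 0 passed after BH adjustment over all genes, against the background of 1.27%, and 4 rows had an unadjusted p under 0.05 (5.71%, against 12.5%), among them Mpc1, Shmt2 and Alas1. The family members with other names were led by Ucp2, an uncoupling protein known from macrophages, with 867.5 ± 23.9 CPM (KO) and 894.5 ± 30.9 CPM (WT), a log2 fold change of -0.04 (SE 0.0376, limma's BH-adjusted p = 0.69). Its 221 CPM per kilobase lies beside that of Slc25a5. The outer membrane members Mtch1 (84.6 ± 2.56 and 83.6 ± 3.61 CPM) and Mtch2 (79.6 ± 2.07 and 75.1 ± 1.71 CPM) did not pass the test either, while Ucp1 and Ucp3 were not analysed here.

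The machinery that brings carrier proteins into the inner membrane showed 0 of 13 tested genes past the test, with a median log2 fold change of 0.0069. Its most abundant members per kilobase were the receptor gene Tomm22 (KO 68.5 ± 3.92 CPM, WT 69.5 ± 2.26 CPM) and the small chaperone gene Timm8b (20.01 ± 0.689 and 18.6 ± 0.912 CPM). Of other mitochondrial transporters, 0 of 20 passed (median 0.014), and the porin genes Vdac2 (334 ± 3.61 and 363 ± 27.2 CPM) and Vdac1 (229 ± 8.73 and 241 ± 11.5 CPM) led. Vdac2 passed without WT replicate 1 (-0.18, limma's BH-adjusted p = 0.0324, between 0.0324 and 0.724 over the alternatives).

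Enzymes of the malate-aspartate shuttle and of citrate metabolism, which use what Slc25a11, Slc25a12, Slc25a13 and Slc25a1 carry, showed 0 of 9 past the test (median -0.0047). Mdh2 stood at 136 ± 5.63 (KO) and 142 ± 7.85 CPM (WT), and citrate synthase, Cs, at 221 ± 4.53 and 227 ± 8.56 CPM. Of the carnitine shuttle enzymes, 0 of 3 passed (median -0.042), with Cpt1a at 183 ± 14.02 and 197 ± 9.28 CPM and Crat at 98.5 ± 6.61 and 96.7 ± 0.555 CPM. Mitochondrial folate and NAD enzymes had 0 of 9 rows past it (median 0.052), with Mthfd2 at 93.3 ± 2.59 and 91.8 ± 3.55 CPM. The serine-to-glycine enzyme gene Shmt2 stood at 52.6 ± 0.149 and 47.0 ± 0.832 CPM (0.16, limma's BH-adjusted p = 0.119).

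Of the heme and iron-sulfur enzymes, 0 of 13 passed (median -0.028). Alas1, which joins the glycine that Slc25a38 brings in to succinyl-CoA at the start of heme synthesis, had 163 ± 6.02 CPM across the KO samples and 208 ± 25.8 CPM across the WT samples (log2 fold change -0.35, SE 0.0802, limma's BH-adjusted p = 0.106). Among the settings under which it passed were the fit without WT replicate 1 (-0.44, limma's BH-adjusted p = 0.00828) and that with array weights (-0.39, adjusted p = 0.0436), in a range of 0.00828 to 0.321 over the alternatives. The iron-sulfur scaffold gene Iscu stood at 43.1 ± 1.34 and 44.3 ± 1.72 CPM.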

How the data were processed

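The authors deposited CPM per gene for 6 samples, with no counts. Per the labels, total RNA was sequenced paired-end, and per the submitters' processing notes the build was GRCm39. The aligner, counter, strand setting and scaling are not given in the sources used here. Besides CPM, the deposited file holds 1 unlabelled p-value, which was not used, and 0 further columns of sample values. At best between 28.8% and 60.0% of values under 0.4 CPM in a sample lay within 0.1 step of whole reads, so counts were not recovered and depth is unknown.

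The 11556 genes that reached 1 CPM in 3 or more samples were compared on log2(CPM + 1) with limma 3.58.1 (R 4.3.3; trend, two-sided, BH over all tested genes, threshold 0.05), a model checked on simulated data. Single carriers were also compared by the exact permutation test of 20 labelings. Lengths, gene order and 3′ UTRs came from GENCODE M21 on GRCm38, which all 36 carriers matched, as did 12661 of all identifiers. The members and lists were chosen with earlier results of these data known. Given in every sample are the carriers past the test, the 12 with the largest differences and the 10 most abundant per kilobase. Of these and of the partner genes, 1 each is counted but not reported here singly. Of each partner list, up to 4 genes past the test or else the 2 most abundant per kilobase are named; Vdac2 and Alas1 calls under alternatives and the neighbours of all carriers were picked with values known. The alternatives were other pseudocounts, filters, scalings, variance models, sample weights, a replicate block and each sample left out.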

Additional observations from a re-analysis of the deposited data

How the results depend on the processing

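No carrier passed the test under any of the 18 alternatives, and the lowest adjusted p was 0.0555 (Slc25a13, limma with array weights). The median log2 fold change of the carriers lay between -0.036 and 0.0015 and was positive where the columns were rescaled to a common total, an alternative chosen after seeing the data. In 14 carriers with a log2 fold change of at most 0.0887 in size the sign changed under some alternative, in 34 of 641 values. A mean of at least 5 CPM left 29 carriers. Over all tested genes, 147 passed, 74 without the trend and between 55 and 243 with single samples left out (243 when WT replicate 1 was left out, 63 when KO replicate 1 was, and 58 or 55 when WT replicate 2 or 3 was). Of the partner genes 0 passed, 1 with array weights (Alas1), between 0 and 2 with samples left out, and 1 with a replicate block (Alas1, limma's BH-adjusted p = 0.0342). The 10 most abundant carriers shared 8 members with the order by CPM alone and 8 with that by coding length. The labels give replicate numbers no meaning, and same-numbered samples did not deviate together (r = 0.000154, 0.0834 and 0.0646 across genes for numbers 1, 2 and 3), with 2 of 3 KO samples correlating best with their own number. With the replicate block 142 genes passed over the whole table, the carriers' median stayed at -0.021 and 0 carriers passed. Depth in reads is unknown, which limits statements on the 7 carriers under a mean of 5 CPM.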

Other observations

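Slc25a32 lay among genes that passed the test and did not pass it itself. In the gene order of GENCODE M21, the 20 tested genes nearest to it on chromosome 15 were taken, 10 on each side. Of these, 9 passed the test, 5 higher and 4 lower in KO, against 1.27% of all tested genes. The 9 included Rims2, Dpys, Lrp12 and Angpt1. Slc25a32 stood at 23.8, 23.7 and 22.2 CPM in KO and at 22.7, 23.7 and 26.0 CPM in WT (log2 fold change -0.05, 95% interval -0.20 to 0.10, limma's BH-adjusted p = 0.807). Of the other carriers, 3 had 1 such neighbour (Slc25a24 with Vcam1, Slc25a28 with Scd2 and Slc25a40 with Gm15459) and 32 had none, Slc25a13 and Slc25a51 included. Slc25a1 is the carrier on the chromosome of the deleted cluster, 801 kb from Mir130b on GRCm38, and of the 14 tested genes between them 1 passed the test. The neighbours were looked up with the values known.

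The table holds 2 rows named Nnt, the gene of the enzyme that makes NADPH from NADH in the inner membrane. The row listed earlier stood at 17.8, 9.72 and 19.4 CPM in KO and at 13.2, 10.9 and 14.9 CPM in WT, and the other at 13.2, 19.9 and 10.3 CPM in KO and at 16.7, 19.7 and 16.2 CPM in WT. A sample that was high in either row was low in the other. Their sums lay between 29.6 and 31.1 CPM, with a coefficient of variation of 2.21% against 26.6% and 23.2% for the rows alone. The genotypes overlapped in each row, and reads that match both gene models would make either row uncertain.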
